A study of Mus musculus with 10 samples.

Results

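The genes described here build the nuclear lamina and the LINC complex, and they comprised 10 of the 53379 genes in the deposited tables: Lmna, Lmnb1, Lmnb2, Lbr, Emd, Tmpo, Sun1, Sun2, Syne1 and Syne2. They were chosen by name, each as the row whose identifier belongs to the symbol, with earlier results of these same libraries already known. The differences between genotypes are therefore given as a description of these libraries, and the p-values printed for the 10 genes are those of the fit across all genes and stand for no independent test.

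RNA-seq was performed at embryonic day 16 on 3 embryos labelled cKO-Cdkn1c-MADM-7 (cKO) and on 7 labelled as MADM-7 controls. Each library was made from 400 sorted MADM-labelled cells of the cortex of 1 embryo, taking green, red and double-labelled cells together. The cKO embryos carried floxed Cdkn1c on both MADM-7 chromosomes together with Emx1-Cre, whereas the controls carried Emx1-Cre and the same MADM cassettes (GT and TG) without the floxed alleles, so recombinase and reporters were common to both groups. The labels give CD1 as the background, and their protocol text a mixed C57BL/6J and CD1 one. MADM (mosaic analysis with double markers) labels only the few cells in which Cre recombines the paired chromosomes, and Emx1-Cre acts in cortical radial glial progenitors and passes to the excitatory neurons and glia derived from them, so each library is a mixture of progenitors and neurons and gives no value for a single cell type.

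The nuclear lamina is a meshwork of A-type and B-type lamins beneath the inner nuclear membrane, where it binds membrane proteins such as emerin, the LAP2 proteins and the lamin B receptor and anchors heterochromatin. SUN proteins of the inner membrane bind KASH-domain nesprins of the outer membrane across the space between the membranes, and this LINC bridge ties the lamina to microtubule motors and actin. In the developing cortex the B-type lamins, SUN proteins and nesprins are known for their part in moving the nucleus, both in dividing radial glia and in migrating neurons.

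Library size on genes ranged from 1738220 to 3362487 reads, and reads that fell outside genes made up 5.47% to 16.7% of those that mapped. Cdkn1c, the deleted cell cycle inhibitor, checked the genotype labels: it had 116 to 369 reads per control library and 10 to 32 per cKO library (log2 fold change -3.66 ± 0.31, SE). Markers of the Emx1 lineage and forebrain summed to 598 to 767 reads per 1000000 reads on genes (CPM) in cKO and 594 to 878 CPM in control, so both groups carried them. The libraries differed in GC content, cKO replicate 1 the most: it was shifted towards GC-rich transcripts, with a median log2 ratio to the control mean of -0.19 in the 20% of genes poorest in GC and 0.35 in the 20% richest in it, while the same span ran from 0.15 down to -0.20 in cKO replicate 2 and from 0.06 to -0.11 in cKO replicate 3. Among the controls the richest group minus the poorest ran from -0.25 in replicate 5 to 0.32 in replicate 6, next to 0.54 in cKO replicate 1. Fold changes of the 9 tested lamina and LINC genes are also given without cKO replicate 1. CPM here is scaled to the library total after trimmed-mean (TMM) normalization, and intervals of fitted fold changes are 95% intervals.

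**Figure D1:**
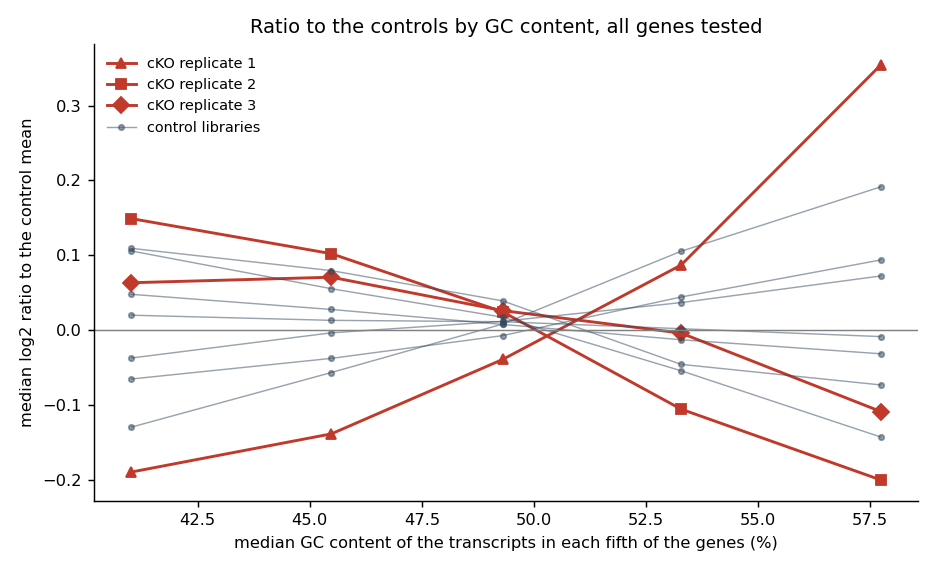
Median log2 ratio of each library to the mean of the controls (vertical axis) in 5 equal groups of genes ordered by the GC content of their longest transcript (horizontal axis, percent), over all genes tested. The line of cKO replicate 1 climbs from -0.19 to 0.35, and those of the other cKO libraries fall.

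In the controls the 10 genes spanned a wide range of levels. Per kilobase of exon, Emd, which encodes the inner membrane protein emerin, was highest at 24.2 ± 4.12 CPM per kb (SD, n = 7), followed by Lmnb1 at 18.6 ± 5.22. Tmpo, at 10.9 ± 1.25, and Sun1, at 9.59 ± 0.85 CPM per kb, came next. Lbr, Lmnb2 and Syne2 lay between 4.27 and 6.22 CPM per kb on average. Lmna, with 2.57 ± 0.61, and Sun2, with 1.43 ± 0.58 CPM per kb, were low, and Syne1 was close to absent at 0.031 ± 0.030. The B-type lamins thus stood above the A-type lamin: the lowest control value of Lmnb2 was 3.82 and the highest of Lmna was 3.34 CPM per kb. Neighbours in this order overlapped in their control ranges, except Lmnb1 and Tmpo, Sun1 and Lbr, Syne2 and Lmna, and Sun2 and Syne1. Exon length was counted over all annotated transcripts, so a gene with long unused exons, as may be for the 40.5 kb of Syne1 and the 26.7 kb of Syne2, is set too low on this scale.

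**Figure D2:**
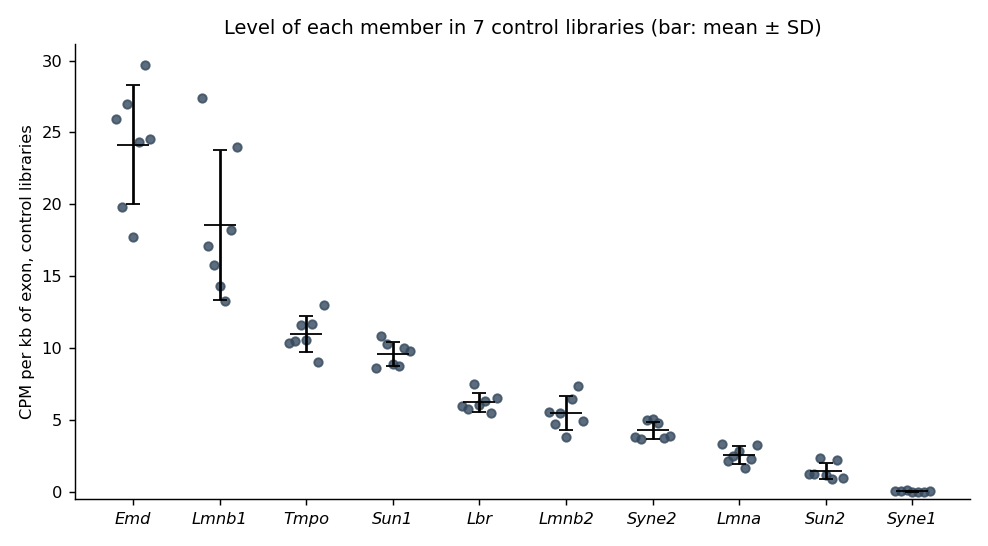
Level of each gene in the 7 control libraries in CPM per kilobase of exon (vertical axis, linear), ordered from highest to lowest mean. Points are libraries and bars the mean ± SD, and the means run from 24.2 for Emd to 0.031 for Syne1.

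In the comparison of cKO with control, 2 of the 9 genes tested were called at an adjusted p under 0.05, both higher in cKO: Lmna and Emd. None was called lower by edgeR or DESeq2, and no gene lower in cKO had an unadjusted p under 0.05. Over all 11551 genes tested, 2.27% were called higher and 0.883% lower, and since the 10 genes were picked with this contrast known nothing is read from their count. Syne1 had a mean of 8.7 reads, under the minimum of 10, and was not tested. The median log2 fold change of the 9 genes was 0.16, with 5 above and 4 below 0, beside 0.01 over all genes tested, and without cKO replicate 1 the median was -0.05. For none of the 10 genes were the cKO and control ranges of CPM separate, which they were for 6.01% of all genes tested. In such pooled libraries, more or fewer cells that use a gene and more or less RNA per cell cannot be told apart.

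**Figure D3:**
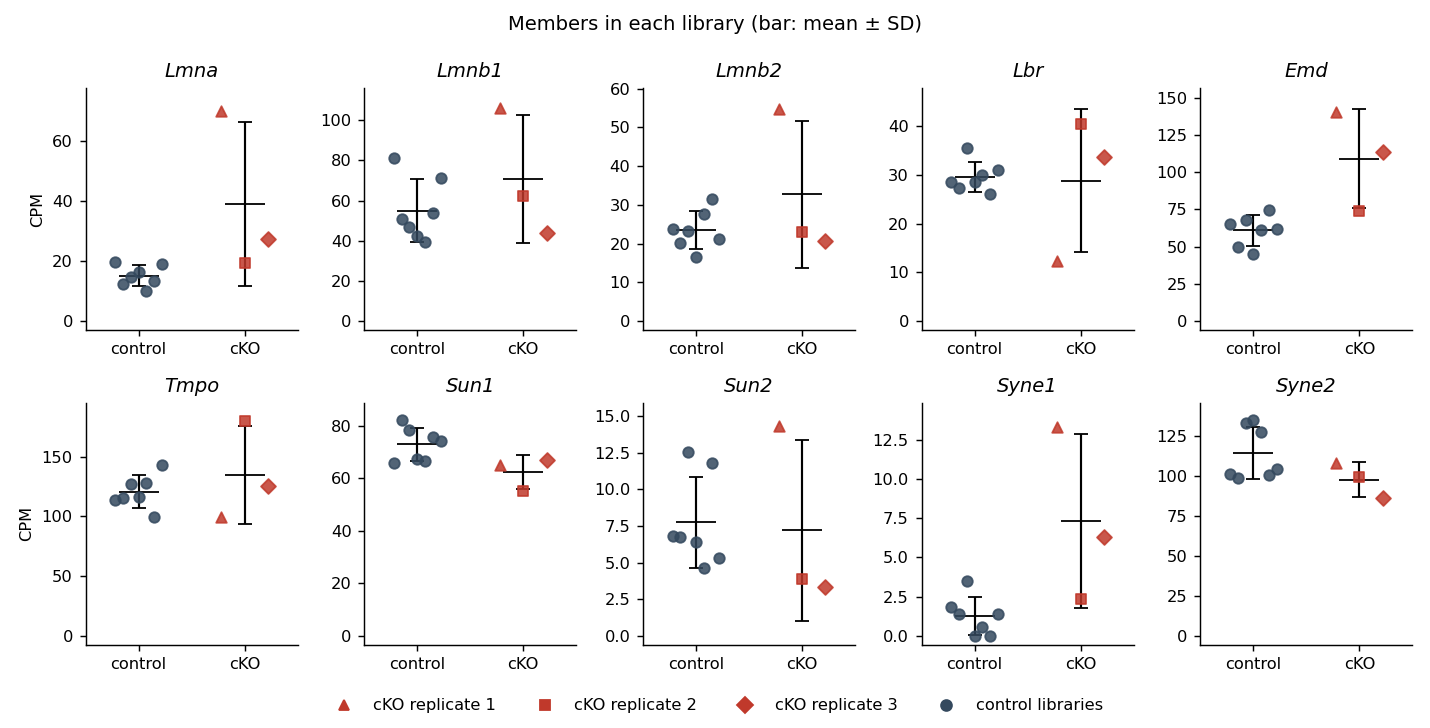
CPM of each gene in every library (vertical axes, linear, 1 panel per gene), with the 7 control libraries as circles, each cKO library by its own marker, and bars for the mean ± SD. For Lmna, Emd and Syne1 cKO replicates 1 and 3 lie above all controls and replicate 2 lies among them.

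Lmna encodes lamins A and C, the A-type lamins, which stiffen the nucleus and are known to be scarce in early neural cells (chr3:88480147-88509956, minus strand, GRCm38). In cKO replicates 1, 2 and 3 it reached 70.0, 19.1 and 27.3 CPM. The controls ran from 9.81 through a median of 14.6 to 19.5 CPM. All 3 cKO libraries were above the control median, replicates 1 and 3 were above every control, and replicate 2 was just under the highest one. The fitted log2 fold change was 1.39 ± 0.34 (SE), with an interval from 0.67 to 2.11 (edgeR quasi-likelihood, adjusted p = 0.031 over all genes). The size of this difference rested on cKO replicate 1, whose 210 reads compare with 49 and 65 in the other cKO libraries and 17 to 54 in the controls. Without it the log2 fold change was 0.60 (interval -0.04 to 1.24, adjusted p = 0.35), and with a correction for GC content over all 10 libraries, an alternative added after the data had been seen, it was 1.38 (adjusted p = 0.0196; 0.00021 to 0.35 over all alternatives). The adjusted p was also over 0.05 when control replicate 2, 3, 4 or 5 was left out, at 0.066, 0.062, 0.052 and 0.058 in that order. The log2 fold changes in these fits were 1.33, 1.37, 1.40 and 1.32.

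Emd encodes emerin, a LEM-domain protein of the inner nuclear membrane that binds lamins and the DNA-bridging factor BAF (chrX:74254687-74261548, plus strand). It measured 140 CPM in cKO replicate 1, 73.7 in replicate 2 and 114 in replicate 3. In the controls it ranged from 44.7 to 74.7 CPM with a median of 61.8. Its pattern was like that of Lmna, in that replicates 1 and 3 exceeded every control and replicate 2 sat just below the top control. The log2 fold change was 0.86 ± 0.20 (SE; interval 0.43 to 1.28, edgeR, adjusted p = 0.025 over all genes). Without cKO replicate 1 it was 0.62, with an interval of 0.17 to 1.07 that stayed above 0 and an adjusted p of 0.15, and over all alternatives the adjusted p ran from 0.0044 to 0.25. The adjusted p was also over 0.05 without cKO replicate 3 (0.082), control replicate 2 (0.058) or control replicate 4 (0.052). The log2 fold changes in these fits were 0.83, 0.80 and 0.78. Emd is X-linked, and Xist, the RNA transcribed from the inactive X chromosome, divided the libraries in the same way: cKO replicates 1 and 3 had 437 and 80.3 CPM of Xist and cKO replicate 2 had none. Among the controls, Xist was seen in replicates 2 (107 CPM) and 7 (75.6 CPM), in which Emd stood at 49.9 and 61.8 CPM, inside the range of the other controls. Whether the X chromosome has a part in the difference of Emd was not tested. In exons, 13.6% of the bases of Emd are shared with a pseudogene on the same strand, and reads there were left uncounted.

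The stretches upstream of the RefSeq starts of Lmna and Emd are shown because these were the genes called higher. They were taken from RefSeq (GRCm38.p6), 5′ to 3′ on the strand of the gene, in lower case with matches to the searched motifs in capitals. For Lmna the window chr3:88503387-88503602 is given, leaving out the last 34 bases before the start, which lie in an exon of another Lmna transcript, and for Emd chrX:74254437-74254686. The Lmna window lies inside the Gencode gene, whose 5′ end is at 88509956, whereas the Emd window ends at the base before the Gencode gene.
Lmna: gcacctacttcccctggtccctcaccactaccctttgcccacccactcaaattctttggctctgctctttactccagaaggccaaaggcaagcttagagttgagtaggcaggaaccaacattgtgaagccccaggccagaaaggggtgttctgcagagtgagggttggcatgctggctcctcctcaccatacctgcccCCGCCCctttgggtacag
Emd: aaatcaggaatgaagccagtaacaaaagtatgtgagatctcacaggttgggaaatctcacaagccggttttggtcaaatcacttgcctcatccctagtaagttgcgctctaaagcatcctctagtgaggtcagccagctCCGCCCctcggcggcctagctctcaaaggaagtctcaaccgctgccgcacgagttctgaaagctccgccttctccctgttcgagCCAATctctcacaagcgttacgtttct

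The 6 motifs searched on both strands in the 250 bases before each start were the GC box GGGCGG, the CCAAT box CCAAT, the TATA box TATAAA, the AP-1 site TGANTCA, the E-box CACGTG and the cyclic AMP response element TGACGTCA. The Lmna window held 1 GC box, 47 to 52 bases before the start, and the window of a second RefSeq start of Lmna (chr3:88493313-88493562) held no GC box and 1 CCAAT box. The Emd window held 1 GC box, at 106 to 111 bases, and 1 CCAAT box at 23 to 27 bases before the start. Of all 32851 windows of this length, 32.7% held the GC box and 33.8% the CCAAT box. The letters of the other motifs, present in 1.5% to 12.4% of windows, were in neither window. The GC content of the full windows was 56.4% for Lmna and 51.2% for Emd, next to a median of 52.4% over all windows. It reached up to 70.8% among the first promoters of the 9 lamina and LINC genes searched, Lmnb1 being left out of the search.

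The B-type lamins are farnesylated and stay attached to the inner membrane. Lmnb1 measured 106, 62.4 and 43.7 CPM in cKO replicates 1 to 3 against 39.3 to 81.1 CPM (median 50.7) in the controls, and Lmnb2 (chr10:80901203-80918245, minus strand) measured 54.7, 23.0 and 20.6 CPM against 16.4 to 31.4 CPM (median 23.3). For both genes only cKO replicate 1 lay above the controls. The log2 fold changes were 0.38 (interval -0.17 to 0.93) for Lmnb1 and 0.54 (interval -0.09 to 1.17) for Lmnb2, and without cKO replicate 1 they became -0.05 and -0.09. Neither gene was called, and the values of cKO replicates 2 and 3 lay inside the control range for both.

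Lbr encodes the lamin B receptor, which tethers heterochromatin to the nuclear edge and also carries sterol reductase activity (chr1:181815335-181843046, minus strand). It went the opposite way in cKO replicate 1, at 12.3 CPM, below the lowest control of 26.1, while replicate 2, at 40.6 CPM, was above the highest control of 35.6 and replicate 3, at 33.6, was within the range. The log2 fold change of -0.07 (interval -0.67 to 0.53) was fitted over cKO libraries on either side of the controls, and without cKO replicate 1 it was 0.32, without replicate 2 it was -0.43 and without replicate 3 it was -0.20. Lbr shares 10.7% of its exonic bases with other genes, mostly with Dnah14 on the opposite strand. With the strand-wise columns summed it had 1.51 times as many reads, and the log2 fold change was 0.15. The libraries are not stranded, so the added reads may come from either gene.

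Tmpo encodes the LAP2 (thymopoietin) proteins, which bind lamins and chromatin (chr10:91147571-91181315, minus strand). It measured 99.3, 179 and 125 CPM in cKO replicates 1 to 3 and 99.3 to 143 CPM (median 116) in the controls. Replicate 2 was above all controls, and replicate 1 was level with the lowest. The fitted change was 0.16 on the log2 scale (interval -0.21 to 0.54), 0.35 without cKO replicate 1 and -0.11 without cKO replicate 2.

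Sun1 and Sun2 encode the SUN-domain proteins of the LINC bridge. Sun1 (chr5:139200637-139249840, plus strand) varied little among the controls (mean 72.8 ± 6.44 CPM, SD, n = 7). It was at 65.0, 55.0 and 66.8 CPM in cKO and 65.6 to 82.2 CPM (median 74.2) in control. All 3 cKO values were below the control median, and replicates 1 and 2 were below every control, by little in the case of replicate 1. Its log2 fold change was -0.23 (interval -0.57 to 0.12; -0.27 without cKO replicate 1), and it kept this sign with each library left out. Sun2 (chr15:79724070-79742536, minus strand) was at 14.3 CPM in cKO replicate 1, above the highest control of 12.5, and at 3.90 and 3.36 CPM in replicates 2 and 3, below the lowest control of 4.62. The log2 fold change was -0.07 (interval -1.05 to 0.91) with all libraries and -1.13 (adjusted p = 0.33) without cKO replicate 1. It was above 0 without cKO replicate 2 (0.22), cKO replicate 3 (0.24), control replicate 3 (0.10) or control replicate 6 (0.047). These values rest on 8 to 43 reads per library.

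Syne1 and Syne2 encode nesprin-1 and nesprin-2, the giant KASH proteins that reach from the outer nuclear membrane to actin and to microtubule motors. Syne1 (chr10:5020917-5551482, minus strand) had 40, 6 and 15 reads in cKO replicates 1, 2 and 3 and 0 to 12 reads, median 4, in the controls. Its CPM was 13.3, 2.34 and 6.30 in cKO and 0 to 3.50 in control, with cKO replicates 1 and 3 above all controls. When the minimum on reads was relaxed it entered the fit, with a log2 fold change of 2.48 ± 0.63 (SE) and an adjusted p of 0.0276 under edgeR's own expression filter, and with 2.45 ± 0.54 and 0.00041 without a filter. Having passed through the group where it is high, it adds nothing to the count above. Syne2 (chr12:75818134-76110926, plus strand) measured 108, 99.1 and 85.7 CPM in cKO and 98.8 to 135 CPM (median 104) in control. Only replicate 3 was outside the control range, and the log2 fold change was -0.22 (interval -0.57 to 0.13; -0.30 without cKO replicate 1 and -0.14 without cKO replicate 3).

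**Figure D4:**
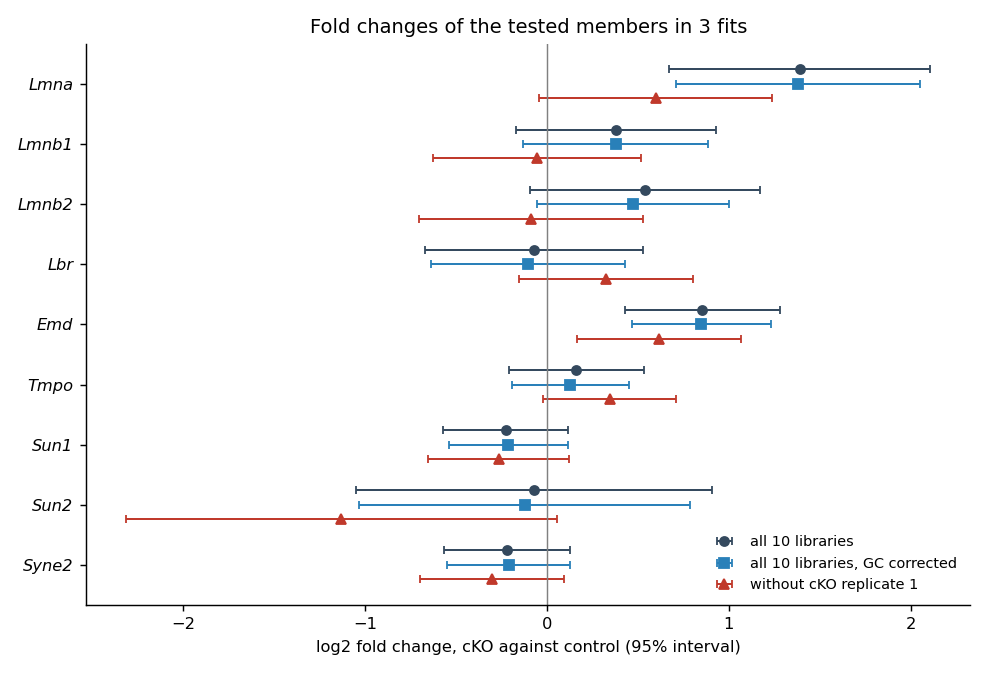
Fitted log2 fold change of cKO against control (horizontal axis) with 95% intervals for the 9 genes tested, from all 10 libraries, from all libraries with GC correction, and without cKO replicate 1. Lmna drops from 1.39 to 0.60 and Emd from 0.86 to 0.62 without that library, while the GC correction moves them to 1.38 and 0.85.

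As a whole, cKO replicate 1 was outside the control range for 9 of the 10 genes, being higher for Lmna, Lmnb1, Lmnb2, Emd, Sun2 and Syne1 and lower for Lbr, Sun1 and, by a margin lost in rounding to 3 digits, Tmpo. The same library was outside the range for 46.5% of all genes tested. cKO replicates 2 and 3 were outside it for 4 and 5 of the 10 genes, and for 42.2% and 35.2% of all genes. Of the 6 genes that were higher in cKO replicate 1, all had transcripts above the median GC content of 49.3%, from 50.6% for Syne1 to 57.6% for Lmnb2. Lbr and Tmpo, at 44.2% and 45.2%, were below it and were lower in this library, as was Sun1, at 51.4%. The part of GC content in single genes was not tested beyond the corrected fit above.

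The libraries also fell into sets by reads outside genes, those under 10% (cKO replicate 3 and 4 controls) and those over it (cKO replicates 1 and 2 and 3 controls). In the first set the mean log2 difference, on log2(CPM + 1), was 0.76 for Lmna and 0.85 for Emd, and in the second it was 1.40 and 0.82. The sign differed between the sets for Lmnb1 (-0.52 and 0.92), Lmnb2 (-0.20 and 0.67), Lbr (0.25 and -0.45) and Sun2 (-0.94 and 0.07). The first set held 1 cKO library. In the second, cKO replicates 1 and 2 were at 70.0 and 19.1 CPM for Lmna and at 106 and 62.4 CPM for Lmnb1.

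Cell type markers were summed in the same libraries, and genes of 4 of the 12 lists were called. Markers of proliferating cells summed to 767, 1842 and 1229 CPM in cKO replicates 1 to 3 and 500 to 1055 in control, with 5 of 10 called higher. Of the projection neuron markers 3 of 10 were called lower, at 7031 to 8616 CPM in sum against 9710 to 12690, and all 6 Cajal-Retzius markers were called higher, at 565 to 692 against 16.2 to 174 CPM. Fibroblast and meningeal markers summed to 23.7, 45.2 and 27.7 CPM in cKO and 9.81 to 29.8 in control, with replicate 2 above the controls. Most of this was Dcn, at 22.7, 35.9 and 24.8 CPM in cKO and 7.39 to 26.6 in control, while Col1a1 measured 1, 2.73 and 0.420 CPM against 0 to 1.08. Endothelial markers reached 0.333, 18.3 and 2.10 CPM against 0 to 2.89. Erythroid markers reached 2283 CPM in cKO replicate 1, 34.3 and 20.2 in the others and 0.715 to 1807 in control. Interneuron markers summed to 52.0, 36.3 and 102 CPM against 13.5 to 51.4, and 1 of 6 (Dlx2) was called higher. By this sum replicate 3 was above every control, and replicate 1 was above them by little. In replicate 1, Dlx2 and Dlx5 were above their control ranges, and Dlx1, Gad1, Gad2 and Lhx6 were inside them. Microglial markers summed to 3.67, 0.780 and 32.8 CPM against 0 to 4.65, and mural markers to 3.00, 2.73 and 8.83 against 1.77 to 5.77. Replicate 3 was above the controls for both sums. Most of its mural sum was Rgs5, at 8.41 CPM against 0 to 2.92 in control. Pdgfrb was at 0.420 CPM in that library against 0 to 4.04 in control, and Acta2 and Abcc9 were at 0 in every library. Radial glial and intermediate progenitor markers (10 and 6 genes) had no member called and overlapped between genotypes. The part of cell mixture in the values of Lmna and Emd was not tested.

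The surroundings of the lamina and the LINC complex were followed in 6 lists of 90 genes, of which 82 were tested and none was called in either direction by edgeR (5 higher and 3 lower at an unadjusted p under 0.05, against 16.4% of all genes in both directions; DESeq2 called 2, both lower). Their median log2 fold change was -0.01, beside 0.01 over all genes.

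Among 18 inner membrane and lamina partners, 9 were above and 9 below 0, with a median of -0.01. Tmem43, an inner membrane protein that binds emerin, had the smallest p: it was at 51.3, 26.1 and 49.6 CPM in cKO and 60.7 to 85.5 in control, so that the groups did not overlap, with a log2 fold change of -0.77 ± 0.21 (SE; edgeR, adjusted p = 0.063; DESeq2, 0.0193; from 0.0193 to 0.47 over all alternatives). In the other direction Nrm, the membrane protein nurim, had 0.63 (adjusted p = 0.19), and 0.41 without cKO replicate 1. Of 7 other SUN and KASH genes only Spag4, a SUN protein of the testis, had reads enough to be tested (log2 fold change -0.02, interval -1.09 to 1.05), and its sign changed with the library left out.

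The 6 enzymes that process lamins had a median of 0.09. Icmt, which methylates farnesylated lamins, had 0.66 (adjusted p = 0.39), a value that was 0.01 without cKO replicate 1, and Fntb, a farnesyltransferase subunit, had -0.38 (adjusted p = 0.41), which became -0.15 without cKO replicate 1 and -0.71 without cKO replicate 3. Of 28 nuclear pore genes tested, 11 were above and 17 below 0 (median -0.06). Nup210, a pore membrane protein, had 0.88 (adjusted p = 0.13) and Rae1, an mRNA export factor, -0.33 (adjusted p = 0.41). Without cKO replicate 2 these were 0.40 and -0.12.

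Among 20 motors and adaptors that move the nucleus, with a median of 0.06, the dynein intermediate chain Dync1i1 had -0.70 ± 0.21 (edgeR, adjusted p = 0.076; DESeq2, 0.0397; from 0.0042 to 0.19 over all alternatives). It ranged from 117 to 180 CPM in cKO and from 140 to 319 in control. The dynein light chain Dynll2 had 0.41 (adjusted p = 0.23), and 0.26 without cKO replicate 1. The 9 heterochromatin proteins ran from -0.19 to 0.12 (median -0.11), with Cbx5, which encodes HP1α, at 0.12 (adjusted p = 0.73; 0.23 without cKO replicate 1 and -0.06 without replicate 2) and Trim28, a corepressor, at -0.13 (adjusted p = 0.69; -0.08 without cKO replicate 3).

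**Figure D5:**
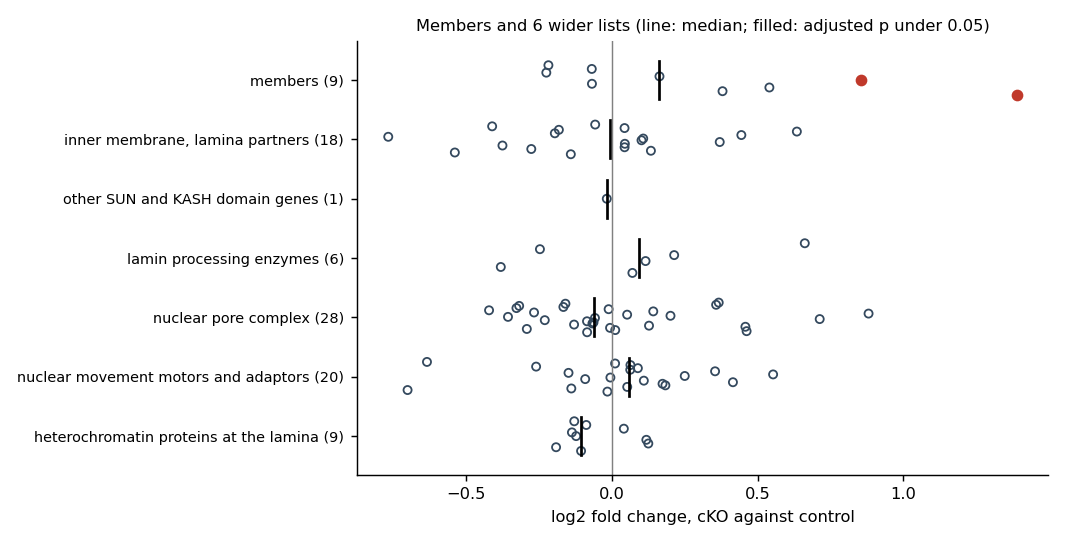
Log2 fold changes of cKO against control (horizontal axis) for the 9 tested lamina and LINC genes and for the 6 wider lists, 1 point per gene, with a line at each median and the number of genes in brackets. Filled points, with an adjusted p under 0.05, are Lmna and Emd, and no gene of the wider lists is filled.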

How the data were processed

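Per the labels and the study's methods, cDNA was made by Smart-Seq2 from polyadenylated RNA, without molecular identifiers. The authors merged technical replicates, aligned to GRCm38 with STAR 2.5.0c, kept uniquely mapped reads and deposited raw read counts per gene (Gencode M16) in unstranded and strand-wise columns. Sense reads were 50.3% to 50.5% of strand-assigned reads, so the unstranded column was used, in which reads on overlapping genes are not counted. Symbols came from Gencode M21 (50604 identifiers matched with version, 2670 without, 105 not).

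Genes that averaged at least 10 reads were tested with edgeR 4.0.16 (TMM, quasi-likelihood, genotype only), adjusted by Benjamini-Hochberg at 0.05. On simulated counts for this comparison (11381 genes), edgeR recovered 42.9% of genes changed by 1 and 80.4% of those changed by 2 on the log2 scale. The simulated libraries had no GC trend and no outlying library, unlike the real ones. Replicate libraries differed beyond sampling noise (chi-square per degree of freedom 4.69 to 20.9 over 24 pairs). Each library came from its own embryo. Members and lists were chosen with earlier results of these data known. Genes named from the wider lists are those called and, per list, the smallest p in each direction. For each member, 3 genes with the highest correlation over the controls are named, among genes averaging 100 reads or more. Alternatives were DESeq2 1.42.0, RLE scaling, other filters, summed strands, a replicate block, the share of reads outside genes, gene length, GC content and leaving out each library.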

Additional observations from a re-analysis of the deposited data

How the results depend on the processing

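Lmna and Emd kept a positive log2 fold change in every alternative. Of the 9 lamina and LINC genes tested, 2 were called higher and 0 lower. The count higher was 3 without a filter and with edgeR's expression filter, both of which also kept Syne1, and 1 with the share of reads outside genes as covariate (Emd, adjusted p = 0.031, while Lmna had a log2 fold change of 1.30 and an adjusted p of 0.062), 0 with GC correction and cKO replicate 1 left out (an alternative added after seeing the data), and 0 to 2 when single libraries were left out. With GC correction and cKO replicate 1 left out, edgeR gave Emd 0.68 (interval 0.26 to 1.11, adjusted p = 0.081) and Lmna 0.66 (interval 0.03 to 1.29, adjusted p = 0.28). None of the lamina and LINC genes was called lower in any alternative. Lbr turned to 0.15 with summed strands and 0.22 with GC correction and cKO replicate 1 left out. With single libraries left out, the log2 fold change ran from -0.055 to 0.62 for Lmnb1, -0.085 to 0.77 for Lmnb2, -0.43 to 0.32 for Lbr, -0.11 to 0.35 for Tmpo, -1.13 to 0.24 for Sun2, -0.065 to 0.235 for Cbx5 and -0.24 to 0.25 for Spag4. Spag4 was also 0.21 with the covariate and 0.026 with length correction, and Trim28 was 0.071 with GC correction and cKO replicate 1 left out. The causes were not tested.

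The replicate numbers did not pair the embryos (correlations of same-numbered deviations -0.21 to 0.041). With the replicate block 0 of the 9 genes were called, with log2 fold changes of 1.23 for Lmna (adjusted p = 0.14) and 0.82 for Emd (adjusted p = 0.19), and Spag4 was 0.049. With the replicate block and length correction 0 were called, with 1.28 for Lmna (adjusted p = 0.19) and 0.74 for Emd (adjusted p = 0.25), and Spag4 was 0.11. Over all genes 262 were called higher and 102 lower. The block gave 141 higher, the block with length correction 71 higher and 48 lower, no filter 701 and 260, DESeq2 210 lower, and leaving out single libraries 187 to 268 higher and 83 to 156 lower.

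Of the wider lists, DESeq2 and the fit without a filter called 2 genes lower (Tmem43 and Dync1i1), and length correction, GC correction and GC correction with cKO replicate 1 left out called 1 lower (Tmem43). The last of these also called 1 higher (Nde1, named after its value was seen). Leaving out single libraries gave 0 to 1 in either direction. Among the lamina and LINC genes, Syne1 (mean 8.7 reads) and Sun2 (mean 21.8 reads) had the fewest reads.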

Other observations

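For each lamina and LINC gene, the 3 genes among 5504 whose log2(CPM + 1) followed it most closely over the 7 controls were listed, as a description of few libraries that share depth and base composition. Syne2 was closest to Ski, Ppp4r3a and 5330431K02Rik (Pearson's r = 0.993, 0.991 and 0.986), and Lmna to Rnf145, Hspa9 and Cenpc1 (r = 0.988, 0.962 and 0.956). Lmnb1 was closest to Nsg1, Uba2 and Actr1a (0.972 to 0.973), and Lmnb2 to Atp6v0d1, Srp68 and Mpc1-ps (0.927 to 0.964). Emd was closest to Polr2m, Poglut1 and Mettl6 (0.927 to 0.946). Tmpo was closest to Xrcc6, Impact and Wdr20 (0.936 to 0.947), and Lbr to Nlgn2, Kif5c and Ccser2 (0.959 to 0.968). Sun1 was closest to Pnn, Snap25 and Cdh13 (0.953 to 0.961), Sun2 to Phf20, Spock1 and Tdp1 (0.927 to 0.955), and Syne1, at 0 to 12 reads, to Pfn2, Jup and 0610010F05Rik (0.947 to 0.965). Without the 2 libraries farthest from each gene's median, the 30 correlations ran from 0.55 (Emd with Polr2m) to 0.998 (Syne1 with Pfn2), and others that fell below 0.8 were Tmpo with Wdr20 (0.687) and Xrcc6 (0.787), Emd with Poglut1 (0.758) and Lmnb2 with Srp68 (0.769). The search left out the 10 genes themselves.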
